A study of Saccharomyces cerevisiae with 8 samples.

Results

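The hexose transporter (HXT) genes of Saccharomyces cerevisiae encode the membrane carriers through which the cell takes up glucose. The 9 genes described here, HXT1 to HXT8 and HXT10, were taken by their symbols in the array's annotation, out of 5449 budding yeast genes that the array names. Of these 9, 8 had a probe set listed under their symbol, 6 had a mean signal above the background floor and were tested (HXT1, HXT2, HXT3, HXT4, HXT5 and HXT7), and 2 lay below the floor (HXT8 and HXT10). HXT6 had no probe set under its own symbol. RNA came from 8 cultures of strain BY4742, recorded as MATa his3 leu2 lys2 ura3, all grown to mid-log phase in synthetic complete dextrose medium and read on 1 Affymetrix array each. There were 4 groups of 2 biological replicates: L-carnitine followed by 0.4 mM H2O2 for 30 min (carnitine with peroxide), 0.4 mM H2O2 for 30 min without carnitine (peroxide), L-carnitine without H2O2 (carnitine), and neither (control). The carnitine dose is given as 100 mg/L in the series design and as 1000 mg/L in the treatment protocol. The design asks how carnitine alters the yeast transcriptome, and whether it alters the response to oxidative stress.

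Yeast carries many hexose carriers that move glucose down its gradient and differ in affinity and in the sugar level at which they are made. HXT1 and HXT3 encode low-affinity carriers used when glucose is plentiful, HXT2 and HXT4 encode carriers made at lower glucose, HXT6 and HXT7 encode nearly identical high-affinity carriers, and HXT5 encodes a carrier known from slowly growing and starved cells. Their transcription is set by glucose itself: the sensors Snf3 and Rgt2 lead to the loss of Mth1 and Std1, which hold the repressor Rgt1 on HXT promoters, while Mig1 and its relatives repress the higher-affinity carriers when glucose is abundant. Several members are chromosomal neighbours in the RefSeq R64 annotation. HXT7 (YDR342C) lies next to HXT6 (YDR343C), HXT3 (YDR345C) follows after 1 intervening gene, and HXT4 (YHR092C), HXT1 (YHR094C) and HXT5 (YHR096C) lie in a second row, with 1 gene between HXT4 and HXT1 and 0 between HXT1 and HXT5. The probe set listed for HXT7 carries the _s_at suffix, which Affymetrix gives to probe sets that can match several transcripts. Its signal may therefore include HXT6 and is called the HXT7 probe set below. The other 7 probe sets end in _at.

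Values are linear signal intensities, and changes are log2 differences ± SE from a limma fit across all 5324 genes above the floor. A gene rose or fell where its Benjamini-Hochberg adjusted p over those genes was below 0.05. The floor, 4.14, is the 95th percentile of the mean signals of probe sets taken as fission yeast, which the array also holds. The median tested gene read 3044 to 3198 depending on the array, and its log2 signal differed between the replicates of a group by 0.0865 to 0.0984 in the median. LEU2, LYS2 and URA3 read 3.87 to 4.09 on the 8 arrays, at the floor, whereas the α-cell gene MF(ALPHA)1 read 46478 to 51980 against 84.3 to 241 for STE2, the receptor gene of a cells, so the mating type in the genotype label does not match the signals of any array. With 2 arrays a group the number of arrays limits the precision of every value. Every change is measured against the whole signal of its arrays. Scaling to bacterial poly-A spikes, which are added to the RNA, shifted the median of all tested genes by 0.08 for carnitine against control, -0.50 for peroxide against control, 0.04 for carnitine with peroxide against carnitine, 0.62 for carnitine with peroxide against peroxide and 0.54 for the interaction. Hybridisation spikes, added with the labelled material, shifted it by 0.19, 0.48, 0.35, 0.06 and -0.13 in the same order. Spike scaling gives every gene of an array the same shift, which changes the spread that the fit estimates. For HXT2 with peroxide alone, the limma adjusted p was 1.77e-06 in the main fit and 8.80e-48 under poly-A scaling. Passes under spike scaling are therefore not like for like with those of the main fit.

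HXT1 and HXT3, for the low-affinity carriers, had lower signals under peroxide, and kept more of their signal when carnitine was present. HXT1 read 27409 and 27685 in carnitine with peroxide, 20499 and 21774 in peroxide, 33952 and 35510.2 in carnitine, and 35453 and 32985 in control. HXT3 read 35654 and 36366 in carnitine with peroxide, 28761 and 27704 in peroxide, 42457 and 41507 in carnitine, and 41719 and 40603 in control. For both genes the peroxide arrays were lowest, the arrays with both agents lay above them, and the carnitine and control arrays were highest and overlapped each other. The mean of HXT1 in peroxide was 61.8% of its control mean, and in carnitine with peroxide it was 79.3% of its carnitine mean. For HXT3 these shares were 68.6% and 85.8%. These signals, with those of HXT2, HXT4 and HXT7, lay above 80.6% to 98.6% of all probe sets of their array in every group, and the file's highest signal was 79918. Whether the response of the bright probe sets is compressed was not tested.

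HXT2 and HXT4, for the carriers made at lower glucose, had the lowest shares left after peroxide. HXT2 read 15351 and 14416 in carnitine with peroxide, 8477 and 7091 in peroxide, 27490.3 and 25987 in carnitine, and 27089 and 25999 in control. HXT4 read 11313 and 13136 in carnitine with peroxide, 6316 and 3808 in peroxide, 25721 and 23351 in carnitine, and 25731 and 24944 in control. The order of the groups was the one seen for HXT1 and HXT3, again with carnitine and control overlapping. Peroxide left HXT2 at 29.3% of its control mean and HXT4 at 19.98%, while in carnitine-fed cells 55.7% and 49.8% of the carnitine mean remained.

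The HXT7 probe set, which may also report HXT6, differed from the other falling members in the arrays with both agents. It read 21410.2 and 20904 in carnitine with peroxide, 11706 and 7696 in peroxide, 24181 and 20187 in carnitine, and 24764 and 21480.1 in control. The arrays with both agents thus lay inside the range of the carnitine arrays, and the peroxide arrays stood alone below all others. Peroxide left 41.95% of the control mean, whereas carnitine with peroxide had 95.4% of the carnitine mean.

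HXT5, the carrier gene of slow growth and starvation, had a low signal and, unlike the other tested members, read higher with peroxide than without it. With peroxide alone that difference did not pass, as given below. It read 546 and 467 in carnitine with peroxide, 85.2 and 110.4 in peroxide, 32.0 and 35.8 in carnitine, and 77.1 and 9.18 in control. The arrays with both agents were highest and overlapped no other group, and the 2 control arrays differed from each other by a larger ratio than the arrays of any other group did. HXT8 and HXT10 were flat at the level of fission yeast probe sets, HXT8 between 3.82 and 3.84 and HXT10 between 3.718 and 3.725 on the 8 arrays, so no change could be measured for them.

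**Figure D1:**
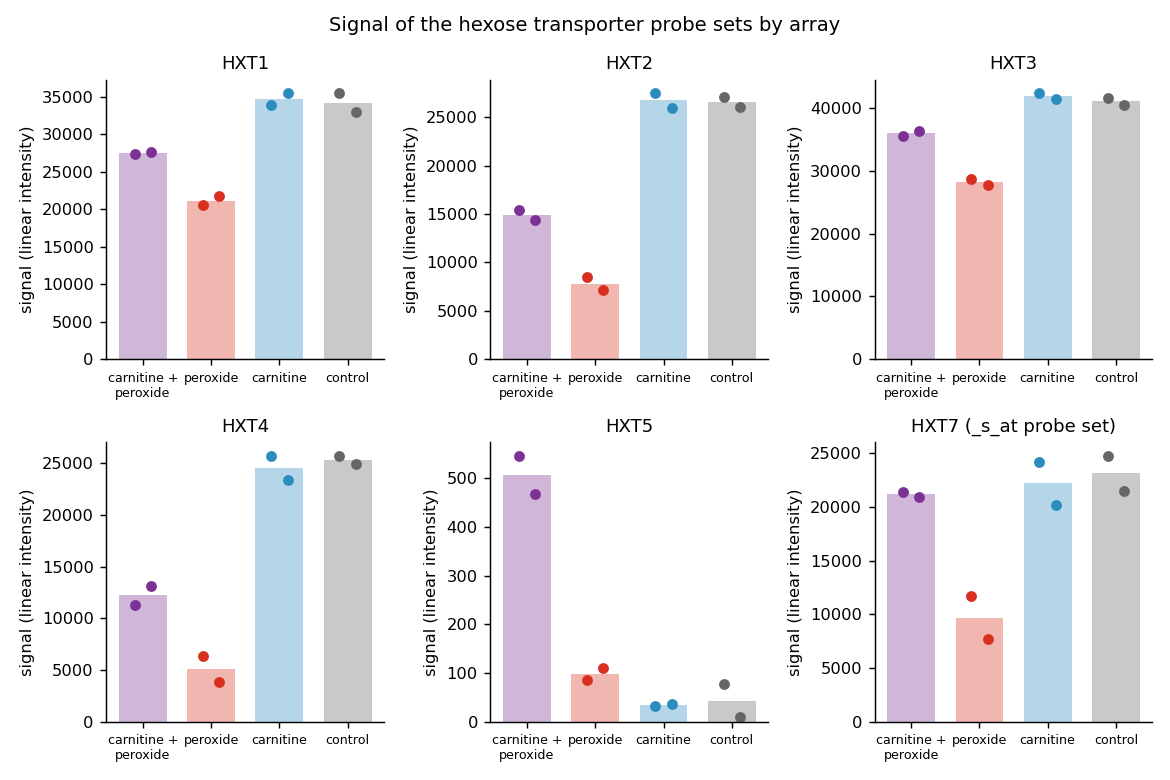
Signal (linear intensity, axes starting at 0) of the 6 tested hexose transporter probe sets, with a point for each of the 2 arrays of a group and a bar for their mean. HXT1, HXT2, HXT3, HXT4 and HXT7 are lowest in peroxide, and HXT5 is highest in carnitine with peroxide, at 546 and 467.

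Carnitine without peroxide gave no called change in any tested transporter. None of the 6 tested members passed in the limma fit, which called 1.5% of all tested genes in this comparison. Of the 6 members, 0 had an unadjusted p below 0.05, where 772 of all 5324 tested genes did. With so few members, that count of 0 cannot show that carnitine had no effect on them. HXT1 had a change of 0.02 ± 0.053 with a 95% interval of -0.10 to 0.15, and HXT3 had 0.03 ± 0.040 with an interval of -0.07 to 0.12. The interval for HXT2 ran from -0.19 to 0.21 around 0.01. Those for HXT4, -0.53 to 0.43 around -0.05, and for the HXT7 probe set, -0.49 to 0.37 around -0.06, were wider, and the one for HXT5 ran from -1.55 to 2.24 around 0.35. The median change of the tested members was 0.02, beside -0.001 over all tested genes. HXT5 has no set direction here: without control replicate 1 its change was 1.88 and passed (adjusted p = 0.0374, where the 8 fits that each left out 1 array reached up to 0.99987), and without control replicate 2 it was -1.19 and did not.

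Peroxide without carnitine, which shows the response to oxidative stress, lowered 5 of the 6 tested members relative to the overall array signal: HXT1, HXT2, HXT3, HXT4 and the HXT7 probe set. Falls were called for 39.5% and rises for 35.3% of all tested genes. In whole-culture RNA a fall in every cell and a loss from part of the cells cannot be told apart. Among the members HXT4 fell by 2.37 ± 0.20 (adjusted p = 2.70e-05), the largest of these falls, followed by HXT2, which fell by 1.78 ± 0.085 (adjusted p = 1.77e-06), and the HXT7 probe set, which fell by 1.28 ± 0.18 (adjusted p = 0.000404). The low-affinity genes fell less, HXT1 by 0.69 ± 0.053 (adjusted p = 1.42e-05) and HXT3 by 0.54 ± 0.040 (adjusted p = 1.21e-05). Only 1.54% of all tested genes had a lower change than HXT4 and 2.97% a lower one than HXT2, against 18.9% for HXT1 and 24.2% for HXT3. The median change of the tested members was -0.99, beside -0.02 over all tested genes. HXT5 had 1.87 ± 0.81, which did not pass (adjusted p = 0.0685). Under both spike scalings HXT5 passed as a rise, but such passes are not like for like with the main fit. Without control replicate 1, in which HXT5 read 77.1, its change was 3.40 and passed, and without control replicate 2 it was 0.33 and did not. When scaled to hybridisation spikes the falls of HXT1 and HXT3 shrank to -0.21 and -0.06 and did not pass, and when scaled to poly-A spikes they were -1.20 and -1.05 and passed, while those of HXT2, HXT4 and the HXT7 probe set passed under each scaling tried.

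In carnitine-fed cells, where carnitine with peroxide is set against carnitine, 4 of the 6 tested members fell and 1 rose, in a comparison that called 39.1% of all tested genes lower and 35.8% higher. HXT4 fell by 1.01 ± 0.20 (adjusted p = 0.00257) and HXT2 by 0.85 ± 0.085 (adjusted p = 5.32e-05). HXT1 fell by 0.33 ± 0.053 (adjusted p = 0.000664) and HXT3 by 0.22 ± 0.040 (adjusted p = 0.00140), but both directions turned when the arrays were scaled to hybridisation spikes, to 0.02 and 0.13, and neither call held under poly-A scaling either. The HXT7 probe set had -0.06 ± 0.18 and did not pass (adjusted p = 0.779), with a 95% interval of -0.49 to 0.37, so these arrays leave room for a fall of up to 0.49. HXT5 rose by 3.90 ± 0.81, with a 95% interval of 2.01 to 5.79 (adjusted p = 0.00287). Its size depends on the low end of the scale: with 50 added to every signal before the log2 step the change was 2.73. HXT5 passed in this comparison under each of the alternatives that kept it in the table, including the spike scalings, whose passes are not like for like. Its SE pools the spread of all 4 groups, the control arrays included, and with 1 array left out its adjusted p lay between 7.36e-06 and 0.0186.

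**Figure D2:**
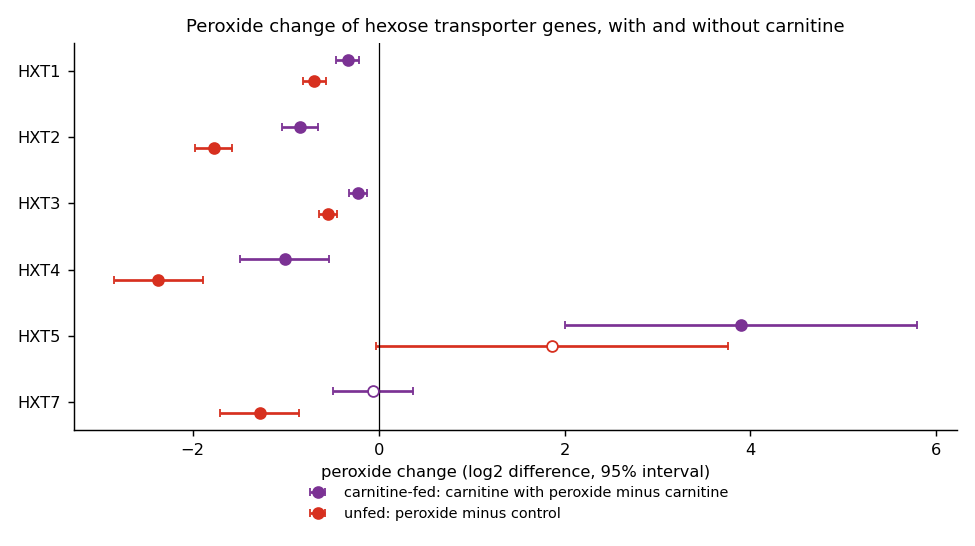
Change with peroxide (log2 difference with its 95% interval) of each tested member in carnitine-fed cells (purple, above) and in unfed cells (red, below). Filled points passed the adjusted p threshold and open points did not. The purple points of HXT1, HXT2, HXT3, HXT4 and HXT7 lie nearer to 0 than the red ones, with HXT7 at -0.06 against -1.28.

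Set directly against peroxide alone, carnitine with peroxide gave higher signals for 5 of the 6 tested members, in a comparison in which 18.8% of all tested genes rose. HXT4 rose by 1.31 ± 0.20 (2.49-fold, adjusted p = 0.00429), the HXT7 probe set by 1.16 ± 0.18 (2.23-fold, adjusted p = 0.00449) and HXT2 by 0.94 ± 0.085 (1.92-fold, adjusted p = 0.00204). HXT1 rose by 0.38 ± 0.053 (1.30-fold, adjusted p = 0.00336) and HXT3 by 0.35 ± 0.040 (1.28-fold, adjusted p = 0.00263). In all 6 tested members both arrays with carnitine and peroxide lay above both peroxide arrays, as they did for 37.5% of all tested genes. HXT5 had 2.38 ± 0.81, just short of the threshold (adjusted p = 0.0547), and the interval of its change ran from 0.49 to 4.28. HXT5 passed under both spike scalings, but such passes are not like for like with the main fit. Without spikes, HXT5 passed under quantile normalization, median centring, the offset, the fit to only the arrays compared and the replicate block. It also passed without either control array, with an adjusted p between 0.00485 and 0.180 over the fits that left out 1 array. Under hybridisation spike scaling HXT1 and HXT3 no longer passed, at 0.44 and 0.41, whereas poly-A scaling gave 1.01 and 0.97, with 1.56 for HXT2 and 1.78 for the HXT7 probe set. The median over the tested members was 1.05, beside 0.01 over all tested genes.

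The interaction tests whether the change with peroxide differed between carnitine-fed and unfed cells, and it was above 0 for the same kinds of carrier. It was called for 5 of the 6 tested members, all with a value above 0, where 7.72% of all tested genes had a called interaction above 0. HXT4 had 1.36 ± 0.29 (adjusted p = 0.0304) and the HXT7 probe set 1.22 ± 0.26 (adjusted p = 0.0304). HXT2 had 0.93 ± 0.12 (adjusted p = 0.0184), HXT1 0.36 ± 0.075 (adjusted p = 0.0292) and HXT3 0.32 ± 0.057 (adjusted p = 0.0231). HXT4, the HXT7 probe set and HXT2 lay above 98.8%, 98.5% and 97.5% of all tested genes in this value, and HXT1 and HXT3 above 85.7% and 83.8%. HXT5 did not pass in the main fit, but it passed with 50 added and under both spike scalings, whose passes are not like for like. In the main fit its value was 2.03 ± 1.15 (adjusted p = 0.263, 95% interval -0.65 to 4.71). It rests on single control arrays, since it was 3.57 and passed without control replicate 2, and 0.50 without control replicate 1. HXT1 and HXT3 no longer passed under hybridisation spike scaling, at 0.23 and 0.19, or with no variance trend, and HXT4 and the HXT7 probe set no longer passed with no filter. Under poly-A scaling, which shifted the median of all genes by 0.54 in this comparison, the interaction was 0.90 for HXT1, 0.86 for HXT3 and 1.47 for HXT2, and all of these passed. All 5 of these calls depend on single arrays. Without control replicate 2, the count given below includes HXT5, which is not among those 5. The count of 5 was 0 without control replicate 1, without carnitine replicate 1, without carnitine replicate 2 and without carnitine with peroxide replicate 1; it was 1 without carnitine with peroxide replicate 2, 2 without control replicate 2, 3 without peroxide replicate 2 and 5 without peroxide replicate 1. In those 8 fits the interaction lay between 0.997 and 1.73 for HXT4 and between 0.92 and 1.52 for the HXT7 probe set. For HXT2 it lay between 0.80 and 1.06.

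**Figure D3:**
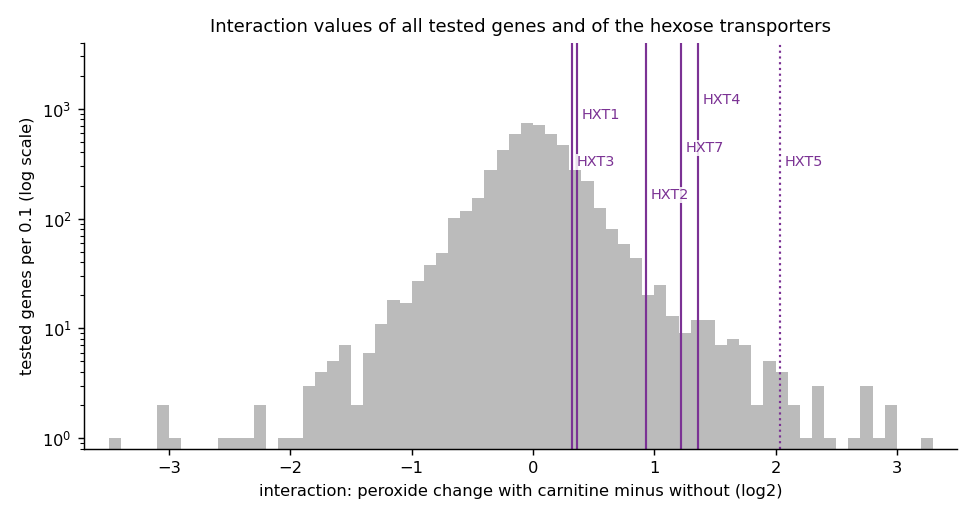
Number of tested genes (log scale) by interaction value, the change with peroxide in carnitine-fed cells minus that in unfed cells, in steps of 0.1 log2 units. Lines mark the 6 tested hexose transporters, solid where the adjusted p was below 0.05. HXT3 and HXT1 sit at 0.32 and 0.36, and HXT2, HXT7 and HXT4 lie in the upper tail, between 0.93 and 1.36.

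Among themselves the falling members differed in size more than in order of the groups. After centring each gene on its own mean, the closest profiles over the 8 arrays were those of HXT1 and HXT3 (root mean square difference of 0.08 log2 units), and next those of HXT2 and HXT4 (0.27). Between these pairs the differences were larger: HXT2 differed by 0.45 from HXT1 and 0.51 from HXT3, and HXT4 by 0.71 and 0.76. The HXT7 probe set differed by 0.35 to 0.52 from these 4 genes. It was nearer to HXT1 and to HXT3 than HXT2 or HXT4 was. HXT5 differed by 1.95 to 2.46 from every other tested member, and its neighbour HXT1 was at 1.99. These values describe 8 arrays that share the same peroxide contrast. Over all tested genes, the profiles most like HXT2 were those of MIG1 (0.05), the glucose repressor gene, SNF3 (0.10), the high-affinity glucose sensor gene, and IFH1 (0.12), for a ribosomal protein gene activator. MIG1 averaged 3057 in carnitine with peroxide, 1627 in peroxide, 5522 in carnitine and 5321 in control. Nearest to HXT4 were MPC3 (0.12), for a subunit of the mitochondrial pyruvate carrier, RCK1 (0.16), for a protein kinase, and CAF120 (0.23), for a factor associated with the Ccr4-Not complex. Nearest to HXT5 were PAI3 (0.71), for an inhibitor of proteinase A, UIP4 (0.74) and YBR284W (0.78).

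Further members of the family lay near the floor, and HXT11 and HXT9 rose on the arrays with both agents. Of 9 other family genes, HXT13, HXT15, HXT17 and the galactose carrier gene GAL2 were below the floor, HXT12 and HXT16 had no probe set listed, and 3 were tested. HXT11, linked to drug resistance as well as hexose uptake, read 50.6 and 40.2 in carnitine with peroxide, 12.3 and 13.5 in peroxide, 11.4 and 11.8 in carnitine, and 13.4 and 11.6 in control. Its arrays with both agents stood above all the others, with 1.81 ± 0.14 against peroxide (adjusted p = 0.00149), 1.96 ± 0.14 against carnitine (adjusted p = 7.64e-06) and an interaction of 1.91 ± 0.19 (adjusted p = 0.00891). HXT9 read 8.20 and 8.31 in carnitine with peroxide, 5.79 and 5.77 in peroxide, 4.45 and 5.72 in carnitine, and 5.74 and 5.70 in control, with 0.51 ± 0.12 against peroxide (adjusted p = 0.0140) and an interaction of 0.70 ± 0.16 (adjusted p = 0.0381). A second HXT9 probe set, of the _s_at type, read 6.27 and 6.54 in carnitine with peroxide and 4.58 and 4.13 in peroxide. As a set that can match several transcripts, it may include HXT11 or others, so it is not independent evidence for HXT9. Which transcripts it reports was not tested. With 50 added to every signal the HXT11 interaction was 0.62 and that of HXT9 0.08, so the sizes rest on the bottom of the scale. HXT14 read 4.24 to 4.32 on all arrays and did not pass in any comparison. The HXT9 interaction did not pass with 50 added, under quantile normalization, under hybridisation spike scaling, or in any fit that left out 1 array other than peroxide replicate 1, and its change against peroxide did not pass under quantile normalization, under hybridisation spike scaling, without peroxide replicate 2, without carnitine with peroxide replicate 1 or without carnitine with peroxide replicate 2.

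Among the genes through which glucose acts on HXT promoters, the sensor gene SNF3 and the corepressor gene MTH1 followed the transporters' order of groups, whereas the low-affinity sensor gene RGT2 and the repressor gene RGT1, named after their values were seen to complete the pathway, had no called change with peroxide alone. MTH1 read 2291 and 2076 in carnitine with peroxide, 844 and 537 in peroxide, 7744 and 6267 in carnitine, and 7441 and 6110 in control. SNF3 read 867 and 795 in carnitine with peroxide, 494 and 395 in peroxide, 1323 and 1354 in carnitine, and 1351 and 1273 in control. For both, the peroxide arrays were lowest and the arrays with both agents came next. With peroxide alone, 3 of 8 genes of the sensors and the Rgt1 arm fell, 0 rose and 5 missed the threshold, where 39.5% of all tested genes fell and 35.3% rose. MTH1 fell by 3.32 ± 0.21, SNF3 by 1.57 ± 0.13 and STD1, the relative of MTH1, by 0.93 ± 0.076. In carnitine-fed cells 5 of the 8 fell, beside 39.1% of all tested genes, MTH1 by 1.68 ± 0.21, SNF3 by 0.69 ± 0.13 and STD1 by 1.18 ± 0.076. The SNF3 fall in carnitine-fed cells was -0.34 under hybridisation spike scaling and did not pass. The interaction was called for MTH1, at 1.65 ± 0.30 (adjusted p = 0.0239), and SNF3, at 0.88 ± 0.18 (adjusted p = 0.0287). STD1 went the other way: it averaged 2029 in carnitine with peroxide and 2584 in peroxide, a fall by 0.35 ± 0.076 (adjusted p = 0.0122), and its interaction of -0.25 ± 0.11 did not pass (adjusted p = 0.158). RGT2 had 0.02 ± 0.095 with peroxide alone and fell by 0.34 ± 0.095 in carnitine-fed cells, a direction that turned to 0.01 under hybridisation spike scaling. RGT2 did not pass there under poly-A scaling, without carnitine replicate 2 or without carnitine with peroxide replicate 2. RGT1 had -0.12 ± 0.11 with peroxide alone (adjusted p = 0.349), and YCK2, for a casein kinase of the sensor pathway, had -0.18 ± 0.079 (adjusted p = 0.0708), which turned to 0.30 under hybridisation spike scaling and passed as a fall under quantile normalization, median centring and poly-A scaling.

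Of the 11 genes in the glucose repression arm, peroxide alone gave 4 rises, 4 falls and 3 below the threshold, beside 35.3% rises and 39.5% falls over all tested genes, and the falls included the 3 MIG genes. MIG1 read 2998 and 3116 in carnitine with peroxide, 1843 and 1412 in peroxide, 5573 and 5471 in carnitine, and 5489 and 5154 in control. MIG1 fell by 1.72 ± 0.12 without carnitine and by 0.85 ± 0.12 with it, and its interaction was 0.87 ± 0.17 (adjusted p = 0.0265). MIG2, a close relative of MIG1, fell by 1.95 ± 0.20 and 0.98 ± 0.20 in the same 2 comparisons, and MIG3 by 1.32 ± 0.15 and 0.87 ± 0.15, without a called interaction (adjusted p = 0.0646 and 0.189). REG1, for the subunit that directs the Glc7 phosphatase to glucose repression, rose by 0.92 ± 0.061 with peroxide alone. GAL83, a subunit of the Snf1 kinase complex, had an interaction of 0.40 ± 0.10 (adjusted p = 0.0461), which did not pass in any of the 8 fits that left out 1 array. The interaction calls of MTH1, SNF3 and MIG1 also did not hold throughout those fits, with an adjusted p of up to 0.0874, 0.0996 and 0.0851.

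The kinases that phosphorylate glucose after its uptake moved otherwise. HXK2, for the main hexokinase of glucose-grown cells, read 38511 and 38285 in carnitine with peroxide, 37681 and 38263 in peroxide, 38270.0 and 38241 in carnitine, and 39630 and 40965 in control. It had -0.09 ± 0.037 with peroxide alone, which did not pass (adjusted p = 0.0668) and turned to 0.40 under hybridisation spike scaling and 0.01 under quantile normalization, while it passed as a fall under median centring, under poly-A scaling and with the offset. HXK1, for the hexokinase made when glucose is scarce, read 46323 and 44038 in carnitine with peroxide, 29847 and 23295 in peroxide, 17847 and 13731 in carnitine, and 18396 and 16270.2 in control. The arrays given both agents were highest, the peroxide arrays came next, and the carnitine and control arrays were lowest and overlapped. HXK1 rose by 0.61 ± 0.15 without carnitine and by 1.53 ± 0.15 with it, GLK1, for glucokinase, by 1.21 ± 0.065 and 1.85 ± 0.065, and EMI2, a relative of GLK1, by 1.31 ± 0.13 and 1.98 ± 0.13. The interaction was called for HXK1, at 0.92 ± 0.21 (adjusted p = 0.0350), and for GLK1, at 0.64 ± 0.092 (adjusted p = 0.0191), but not for EMI2 (adjusted p = 0.0505). Carnitine without peroxide gave -0.14 ± 0.15 for HXK1, -0.35 ± 0.065 for GLK1 and -0.58 ± 0.13 for EMI2, none of which passed. Against peroxide alone, carnitine with peroxide gave 0.78 ± 0.15, 0.28 ± 0.065 and 0.09 ± 0.13 in the same order. For GLK1 and EMI2 the larger part of the interaction thus came from lower carnitine arrays, although that change passed for neither gene. Under poly-A scaling the HXK1 rise without carnitine was 0.10 and did not pass. With 1 array left out, the HXK1 interaction lay between 0.73 and 1.11 and passed only without peroxide replicate 1, and the GLK1 interaction did not pass without control replicate 1, carnitine replicate 1, carnitine replicate 2 or carnitine with peroxide replicate 1.

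**Figure D4:**
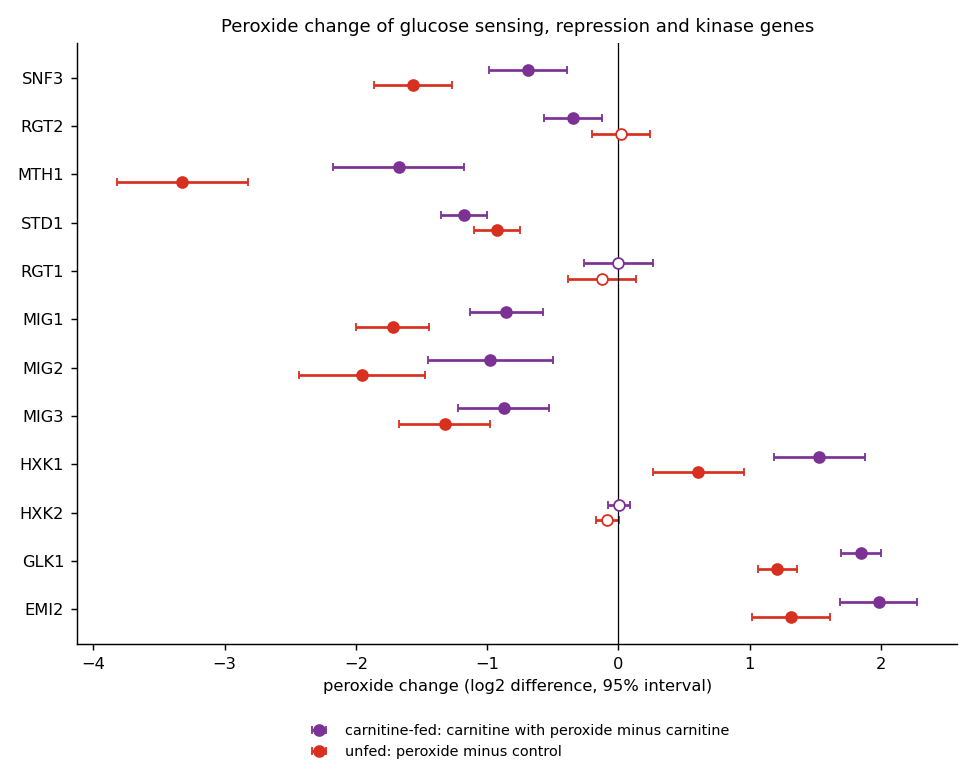
Change with peroxide (log2 difference with its 95% interval) of genes of glucose sensing, repression and phosphorylation, in carnitine-fed cells (purple, above) and unfed cells (red, below), filled where the adjusted p was below 0.05. SNF3, MTH1 and MIG1 lie nearer to 0 in carnitine-fed cells, HXK1 and GLK1 lie farther from it, and RGT1 and HXK2 are open in both.

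Carriers of other sugars and polyols gave 1 rise, 4 falls and 1 that did not pass among 6 tested of 9 with peroxide alone, where 35.3% of all tested genes rose and 39.5% fell. The maltose carrier gene MAL11 fell by 3.58 ± 0.31 and in carnitine-fed cells by 0.89 ± 0.31. MAL31, a second maltose carrier gene, fell by 2.92 ± 0.24, and in carnitine-fed cells it fell by 0.67 ± 0.24. MAL11 read 86.0 and 66.1 in carnitine with peroxide, 25.4 and 14.7 in peroxide, 153.7 and 126.5 in carnitine, and 294 and 182 in control, so its sizes depend on the low end of the scale. With 50 added to every signal its change with peroxide alone was -2.02 and its interaction 1.42, and both passed. MAL31 read 694 and 644 in carnitine with peroxide, 274 and 154 in peroxide, 1042 and 1090.4 in carnitine, and 1683 and 1435 in control. Carnitine without peroxide gave -0.73 ± 0.31 for MAL11 and -0.54 ± 0.24 for MAL31, and neither passed (adjusted p = 0.345 and 0.363). Against peroxide alone, carnitine with peroxide was higher by 1.96 ± 0.31 for MAL11 and by 1.70 ± 0.24 for MAL31. Their interactions, 2.70 ± 0.44 (adjusted p = 0.0207) and 2.25 ± 0.34 (adjusted p = 0.0197) for MAL11 and MAL31, did not pass without control replicate 1, carnitine replicate 1, carnitine replicate 2 or carnitine with peroxide replicate 1. The falls in carnitine-fed cells are less certain: with no filter neither passed, the MAL31 one did not pass under hybridisation spike scaling, and without carnitine with peroxide replicate 2 they were -0.70 and -0.62 and did not pass. They also did not pass without carnitine replicate 1, with MAL11 at -0.75, or without carnitine replicate 2, with MAL11 at -1.03 and MAL31 at -0.64. For MAL31 the same held without carnitine with peroxide replicate 1, at -0.73, or without either control array, at -0.67. ITR1, for the myo-inositol carrier, fell by 1.76 ± 0.095 without carnitine and by 1.72 ± 0.095 with it, a difference of 0.04 ± 0.13 (adjusted p = 0.862). VPS73, for a carrier-like protein of the same superfamily, rose by 1.59 ± 0.10 and 2.08 ± 0.10. STL1, for the glycerol carrier, was below the floor.

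Stress regulators and an HXT-linked kinase gave 2 rises and 3 falls among 5 genes with peroxide alone, where 35.3% of all tested genes rose and 39.5% fell. YAP1, for the peroxide-sensing activator, rose by 1.997 ± 0.093, and MSN2, for a general stress activator, by 0.77 ± 0.10. SKN7, whose product acts with Yap1 on peroxide-induced genes, fell by 1.07 ± 0.080, and SKS1, for a kinase linked to growth on low glucose, fell by 0.82 ± 0.064. MSN4, of the same list and named after its value was seen, fell by 0.46 ± 0.13 (adjusted p = 0.0118). That fall is smaller than the 0.48 by which hybridisation spike scaling shifted the median of all genes. The MSN2 rise did not pass under poly-A scaling, at 0.27, and the SKS1 fall did not pass under hybridisation spike scaling, at -0.33.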

How the data were processed

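Labelled RNA of 8 cultures was read on Affymetrix yeast arrays. The authors deposited 1 linear intensity for each probe set on each array. Per the submitters' processing notes the software included GCOS; the sources used here do not say how background was corrected or probes summarised. Of 10928 probe sets, 5498 carried 1 S. cerevisiae gene, matched by gene identifier to RefSeq R64. They cover 5449 genes, each read from its probe set of highest mean log2 signal, and 125 genes at or below the floor (2.05 on the log2 scale, from 1747 probe sets whose identifiers match no budding yeast gene and whose symbols are written as fission yeast symbols are, taken here as fission yeast) were left out. The other 5324 were fitted on the log2 scale in limma 3.58.1, under R 4.3.3 (group means over 8 arrays, empirical Bayes with a variance trend, 4 residual and 3.44 prior degrees of freedom). Benjamini-Hochberg adjustment was made within each of 5 comparisons, which share arrays. P-values measure the spread between the 2 cultures of a group, pooled over groups. The fit was tested on simulated data.

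All members are named. Genes of 6 further lists are named if among the 4 of a list with the largest absolute moderated t for peroxide against control, or if called for the interaction or for carnitine. RGT1, RGT2 and MSN4 were added after their values were seen. For the 3 members with the largest spread of group means, the 3 genes with the smallest root mean square difference are named. Members and lists were chosen with earlier results of these data known. Alternatives were quantile normalization, median centring, scaling to poly-A or hybridisation spikes, dropping the filter, filtering at the 40th percentile, adding 50, fitting without a variance trend, fitting only the arrays compared, a replicate block, keeping all probe sets of a gene, and omitting 1 array at a time. Figures used matplotlib 3.10.9. Promoter and protein sequences were not used here.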

Additional observations from a re-analysis of the deposited data

Results flagged for a closer look

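The change with peroxide differed between carnitine-fed and unfed cells by the interaction term for 5 of the 6 tested transporters. All 5 values were above 0, where 7.72% of all tested genes had a called interaction above 0. The difference, fed minus unfed, was 0.36 for HXT1, 0.93 for HXT2, 0.32 for HXT3, 1.36 for HXT4 and 1.22 for the HXT7 probe set, on the log2 scale. These are the values whose calls change when 1 array is left out. Groups of 2 arrays are too small for a search for outlying samples.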

How the results depend on the processing

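All 5 falls with peroxide alone kept their direction under every alternative run. The number of members changed was not within 1.5 times of that reported in these settings: 3 for carnitine with peroxide against carnitine under poly-A and under hybridisation spike scaling, and 3 for the interaction with no filter and with no variance trend. Leaving out 1 array gave 0 to 1 for carnitine against control, 5 to 6 for peroxide against control, 5 to 5 for carnitine with peroxide against carnitine, 5 to 6 for carnitine with peroxide against peroxide and 0 to 5 for the interaction. Directions turned for small changes. For carnitine with peroxide against carnitine under hybridisation spike scaling they were 0.019 for HXT1, 0.13 for HXT3, 0.29 for the HXT7 probe set and 0.0092 for RGT2. For peroxide against control, HXK2 turned to 0.40 under hybridisation spike scaling and 0.012 under quantile normalization, and YCK2 to 0.30 under hybridisation spike scaling. For carnitine against control, where no member passed, HXT4 and HXT7 turned to 0.035 and 0.021 under poly-A and to 0.14 and 0.13 under hybridisation spike scaling, and HXT5 to -0.048 with 50 added. With 1 array left out, in the same comparison, HXT1 ranged from -0.030 to 0.074, HXT2 from -0.030 to 0.051, HXT4 from -0.12 to 0.022, HXT5 from -1.19 to 1.88 and HXT7 from -0.19 to 0.068, and for carnitine with peroxide against carnitine HXT7 ranged from -0.19 to 0.068. The cause was not tested.

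The labels do not say whether cultures with the same replicate number were handled together. Deviations of same-numbered arrays correlated between -0.11 and 0.13 over the pairs of groups. This shows no strong shared effect of the replicate number, but it cannot settle whether the cultures were paired. With the replicate block the number of members changed was 0, 5, 5, 6 and 5 in the order carnitine against control, peroxide against control, carnitine with peroxide against carnitine, carnitine with peroxide against peroxide and interaction; HXT5 was the member added. Of 319 alternative values of the members outside the fits that leave out 1 array, 287 kept direction and side of the threshold, and 196 of 240 within them. The filter at the 40th percentile removed HXT5. With probe sets at the floor, HXT8 and HXT10 could show no change at these signals.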
